A study of Mus musculus with 19 samples.

Results

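Dendritic cells capture antigen and present it to T cells, and 10 genes that mark their subsets are described here in the spleens of immunized mice: Zbtb46, Flt3, Itgax, Clec9a, Batf3, Irf8, Cd209a, Clec4a4, Esam and Siglech. They were chosen by gene symbol, with earlier results of these data known, from 27179 genes listed in the expression table. All 10 were among the 14186 genes that passed a filter on low values and were tested. Splenocytes, with red blood cells lysed, came from FCG mice, in which the testis-determining gene Sry is deleted from the Y chromosome and supplied by a transgene on an autosome, so that gonads and sex chromosomes are inherited separately. Their sires, on a B6 background, carried the Sry transgene Tg(Sry)2Ei and the deletion allele dl1Rlb, and their dams were C57BL/6J. XXF (n = 5) are XX mice with ovaries, XYF (n = 4) are XY mice with ovaries, XXM (n = 5) are XX mice with testes, and XYM (n = 5) are XY mice with testes. All 19 mice had been injected intraperitoneally with heat-killed Streptococcus pneumoniae (HKSP) and were killed 1 week later, and no unimmunized mouse is among them. The sources used here do not give the age of the mice. Gonadal sex goes together with the transgene and with adult hormones, and these cannot be told apart.

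Conventional dendritic cells fall into cDC1, which take up dead cells and present antigen to CD8 T cells, and cDC2, which chiefly prime CD4 T cells. Plasmacytoid dendritic cells (pDC) release type I interferon after sensing nucleic acids. All arise from bone marrow progenitors under Flt3 signalling and are a small share of spleen cells, so that in bulk RNA fewer cells of a type and less RNA per cell cannot be told apart.

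The sex chromosome labels were checked first. Xist, the RNA made from the inactive X chromosome, lay between 23.9 and 44.9 RPKM (a read count scaled by gene length and library size) in the 10 XX mice and between 0.00586 and 0.0524 RPKM in the 9 XY mice. Ddx3y, a gene of the Y chromosome, lay between 0 and 0.0533 RPKM in XX and between 30.8 and 59.99 RPKM in XY mice. Every library therefore matched its label at these genes. Libraries held between 11263753 reads (XYF F6) and 19962022 reads (XYM 13). Library running numbers follow the groups without a break, so that any effect of that order and the groups cannot be told apart.

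By level per gene length, Irf8 stood far above the other 9 genes. Irf8, a transcription factor needed for cDC1 and used by pDC and B cells too, averaged 101.9 ± 29.1 RPKM (SD, n = 19). Itgax, which encodes the CD11c integrin chain used to recognise dendritic cells, averaged 18.1 ± 6.92 RPKM. Siglech, a lectin-like receptor of mouse pDC, averaged 12.5 ± 7.58 RPKM. These levels show how unequal the markers are in bulk spleen, where broader genes such as Irf8 draw on several cell types. Cd209a, a C-type lectin found on cDC2 and some monocyte-derived cells, averaged 9.06 ± 3.49 RPKM, Flt3, the receptor for the growth factor of the lineage, 8.93 ± 3.66 RPKM, and Batf3, a transcription factor that sustains cDC1, 8.11 ± 2.93 RPKM. The means of those 3 lay closer together than the SD of each over all groups, and their levels were not tested against each other. Clec9a, the cDC1 receptor for exposed actin of dead cells, averaged 3.15 ± 1.33 RPKM, Clec4a4, the lectin known as DCIR2 on cDC2, 2.22 ± 0.452 RPKM, Esam, an adhesion molecule of Notch2-dependent cDC2, 1.79 ± 0.495 RPKM, and Zbtb46, a transcription factor of conventional dendritic cells, 1.15 ± 0.202 RPKM.

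On GRCm38.p6, Zbtb46 (Entrez 72147) lies on chromosome 2, Flt3 (14255) on 5, Itgax (16411) and Siglech (233274) on 7, Clec9a (232414) and Clec4a4 (474145) on 6, Batf3 (381319) on 1, Irf8 (15900) and Cd209a (170786) on 8, and Esam (69524) on 9, so that none is on a sex chromosome. Irf8 rested on 1537 to 8140 reads a mouse, Itgax on 529 to 2923, Siglech on 159 to 1497 and Flt3 on 174 to 1114. Cd209a rested on 64 to 405 reads and Clec9a on 34 to 356. Batf3 rested on 51 to 163 reads, Esam on 36 to 102, Zbtb46 on 40 to 96 and Clec4a4 on 18 to 54. Close relatives can share reads, and the sources used here do not say how the authors' counting divided them. Mean levels of the relatives of Clec4a4 were 32.2 RPKM for Clec4a1, 8.38 for Clec4a2, 31.8 for Clec4a3 and 5.13 for Clec4b1, all above Clec4a4 itself. Among the relatives of Cd209a, Cd209d averaged 3.24 RPKM, Cd209b 0.489, Cd209c 0.298 and Cd209e 0.273. Among the relatives of Siglech, the B cell lectin Siglecg averaged 88.4 RPKM, Siglece 22.6, Siglecf 0.819 and Siglec1 0.743.

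**Figure D1:**
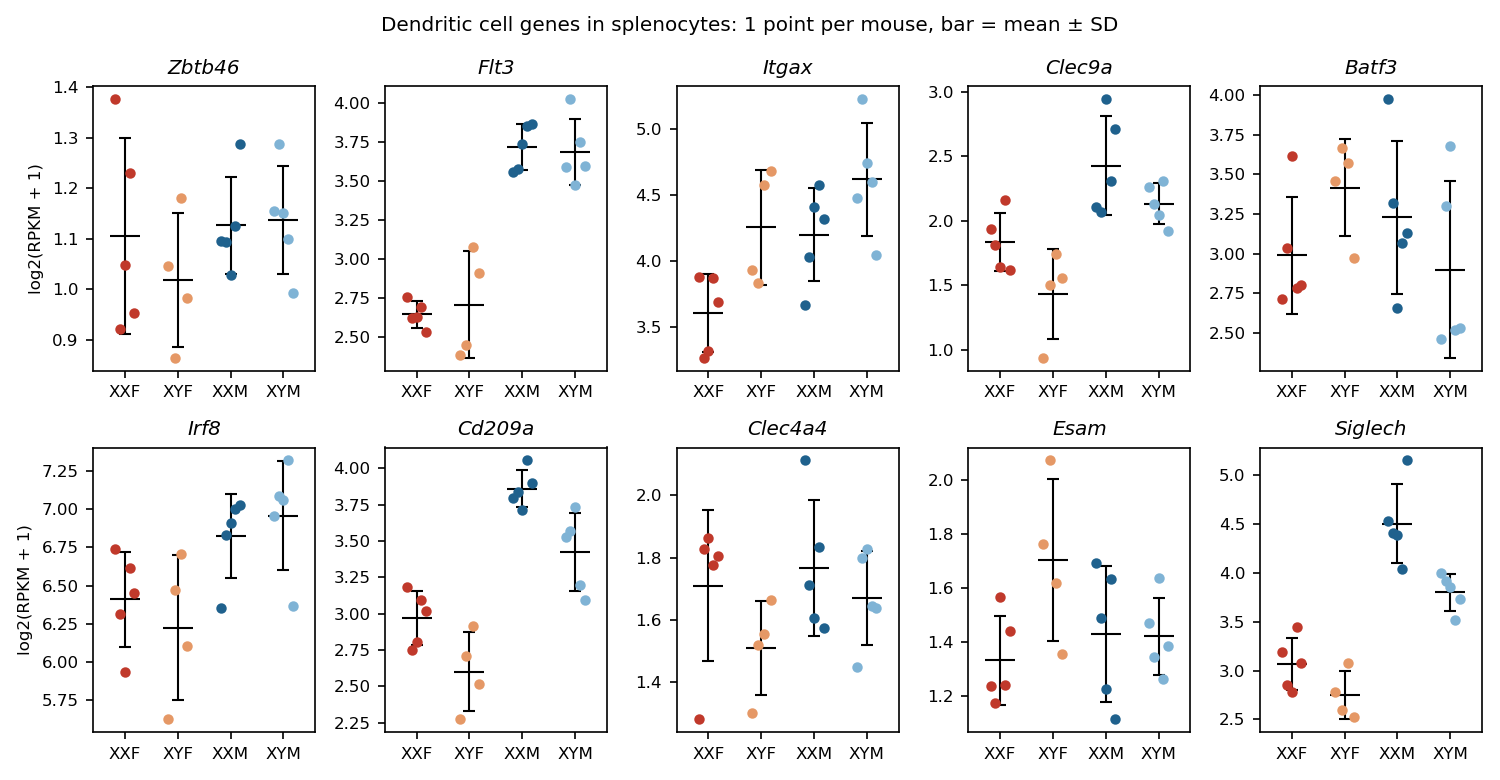
Level of each of the 10 genes in each mouse, as log2(RPKM + 1), by group; each point is 1 mouse and the bars are the group mean ± SD. All 10 males lie above all 9 females for Flt3 (lowest male 3.47, highest female 3.08) and for Siglech (3.51 and 3.45).

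Males were compared with females across XX and XY mice alike, to ask what goes with the gonads. Mice with testes had more RNA of 4 of the 10 genes than mice with ovaries: Siglech, Flt3, Cd209a and Clec9a rose, which between them mark pDC, the shared lineage, cDC2 and cDC1. Irf8 and Itgax had higher means in males but did not reach the required fold. Zbtb46, Clec4a4, Batf3 and Esam did not pass the test. A gene was called where limma's Benjamini-Hochberg adjusted p over all 14186 genes was under 0.1 and the difference at least 1.5-fold. Of all genes tested, 7.32% were called in this comparison either way and 1.96% were called higher in males. The number called higher was 278, but 582 with limma-voom, 564 with log2(RPKM + 0.1), and 204 to 375 leaving out 1 mouse.

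Flt3 is the receptor whose signal drives the expansion of dendritic cell progenitors. Its log2(RPKM + 1) level was 2.75, 2.62, 2.63, 2.69 and 2.53 in XXF, 2.39, 2.45, 3.08 and 2.91 in XYF, 3.55, 3.57, 3.73, 3.85 and 3.86 in XXM, and 3.58, 4.02, 3.47, 3.75 and 3.59 in XYM. The 10 males were all higher than the 9 females, with no overlap. In RPKM the group means were 5.25 ± 0.364 (XXF, SD, n = 5), 5.66 ± 1.57 (XYF, n = 4), 12.2 ± 1.34 (XXM, n = 5) and 11.97 ± 2.02 (XYM, n = 5). The log2 difference was 1.03 (SE 0.10, 95% interval 0.82 to 1.23, limma adjusted p = 2.07e-06). An exact two-sided permutation test gave p = 3.15e-05, the smallest its 31752 arrangements can give.

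Siglech marks pDC most sharply of the 10. Its log2 level was 3.19, 2.85, 2.78, 3.45 and 3.07 in XXF, 2.78, 2.60, 3.08 and 2.52 in XYF, 4.53, 4.41, 4.39, 4.04 and 5.15 in XXM, and 3.99, 3.91, 3.85, 3.51 and 3.73 in XYM. The groups of females and males did not overlap, although the lowest male (XYM 16) was close to the highest female (XXF F4). Mean levels were 7.51 ± 1.62 RPKM in XXF, 5.78 ± 1.2 in XYF, 22.4 ± 7.17 in XXM and 13.03 ± 1.75 in XYM. Males exceeded females by a log2 difference of 1.24 (SE 0.13, 95% interval 0.98 to 1.51, limma adjusted p = 6.09e-06), the largest among the 10 genes. Of all genes tested, 0.529% had every male above every female, as these 2 of the 10 genes did.

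Cd209a encodes a lectin related to human DC-SIGN. Its log2 level was 3.18, 2.75, 2.81, 3.09 and 3.02 in XXF, 2.27, 2.71, 2.91 and 2.51 in XYF, 3.797, 3.84, 3.71, 4.05 and 3.90 in XXM, and 3.53, 3.57, 3.73, 3.20 and 3.09 in XYM. Of the males, 9 of 10 exceeded the highest female, and XYM 9 fell just inside the female range. The log2 difference was 0.86 (SE 0.10, 95% interval 0.65 to 1.07, limma adjusted p = 2.27e-05), with an exact permutation p = 3.15e-05, the smallest possible. Clec9a lets cDC1 divert dead cell material towards cross-presentation. Its log2 level was 1.94, 1.81, 1.64, 2.16 and 1.62 in XXF, 0.94, 1.504, 1.74 and 1.56 in XYF, 2.11, 2.06, 2.94, 2.31 and 2.71 in XXM, and 2.26, 2.13, 2.04, 2.30 and 1.92 in XYM. Females and males overlapped, with 5 of 10 males above the highest female and 10 of 10 above the female median. The log2 difference was 0.64 (SE 0.13, 95% interval 0.37 to 0.92, limma adjusted p = 0.00197, exact permutation p = 9.45e-05). The Clec9a call was lost without XYF F6, the female with the lowest value, where the difference was 0.56, and without XXM 6, the male with the highest, where it was 0.58.

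The male excess was seen separately in XX and in XY mice. Exact permutation tests within XX gave Flt3 1.07 (p = 0.00794), Siglech 1.43 (p = 0.00794), Cd209a 0.89 (p = 0.00794) and Clec9a 0.59 (p = 0.0238) on the log2 scale. Within XY they gave Flt3 0.98, Siglech 1.06, Cd209a 0.82 and Clec9a 0.70, each with exact p = 0.00794, the smallest these group sizes allow. In all, 60 exact tests of single values were made over the 10 genes, and their p-values are unadjusted.

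Irf8 and Itgax had adjusted p under 0.1 but smaller differences. The Irf8 log2 difference was 0.58 (SE 0.15, 95% interval 0.25 to 0.90, limma adjusted p = 0.0108), and 8 of 10 males lay above the highest female, all but XXM 2 and XYM 9. Irf8 passed the required fold when any 1 of 6 mice was left out: XXF F1 (0.62), XXF F4 (0.60), XYF F7 (0.62), XYF F8 (0.66), XXM 2 (0.63) or XYM 9 (0.65). The Itgax log2 difference was 0.48 (SE 0.16, 95% interval 0.14 to 0.82, limma adjusted p = 0.0364), with 9 of 10 males above the female median but 2 of 10 above the highest female. Without XYF F9 and XYM 9, the 2 libraries with the most neutrophil RNA, Itgax differed by 0.62 and Irf8 by 0.63, and both were called. That alternative was chosen after seeing the data.

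The other 4 genes stood outside the calls with adjusted p over 0.1. Zbtb46, which is found across conventional dendritic cells, differed by 0.07 (limma adjusted p = 0.476), and Clec4a4, on cDC2, by 0.11 (0.388). Batf3 differed by -0.14 (0.607) and Esam by -0.09 (0.507), averages of opposite signs: Batf3 differed by 0.24 within XX and -0.52 within XY (exact permutation p = 0.429 and 0.143), and Esam by 0.10 and -0.28 (exact permutation p = 0.484 and 0.0952). Leaving out 1 mouse, the averages ran from -0.24 to -0.060 for Batf3 and from -0.15 to -0.031 for Esam. Within XX and XY, Zbtb46 differed by 0.02 and 0.12, and Clec4a4 by 0.06 and 0.16. Among conventional markers, Cd209a was called while Clec4a4 and Esam, of the same subset, were not, and Clec9a was called while Batf3 was not. The 95% intervals were -0.08 to 0.22 for Zbtb46, -0.09 to 0.31 for Clec4a4, -0.54 to 0.26 for Batf3 and -0.30 to 0.12 for Esam. Of the 10 genes, 6 had an unadjusted p under 0.05, a share not counted over all genes. With no fold threshold, 6 of the 10 passed at adjusted p under 0.1, as did 5468 of all 14186 genes tested. The median log2 difference over all 10 was 0.53, beside 0.02 over all genes tested.

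**Figure D2:**
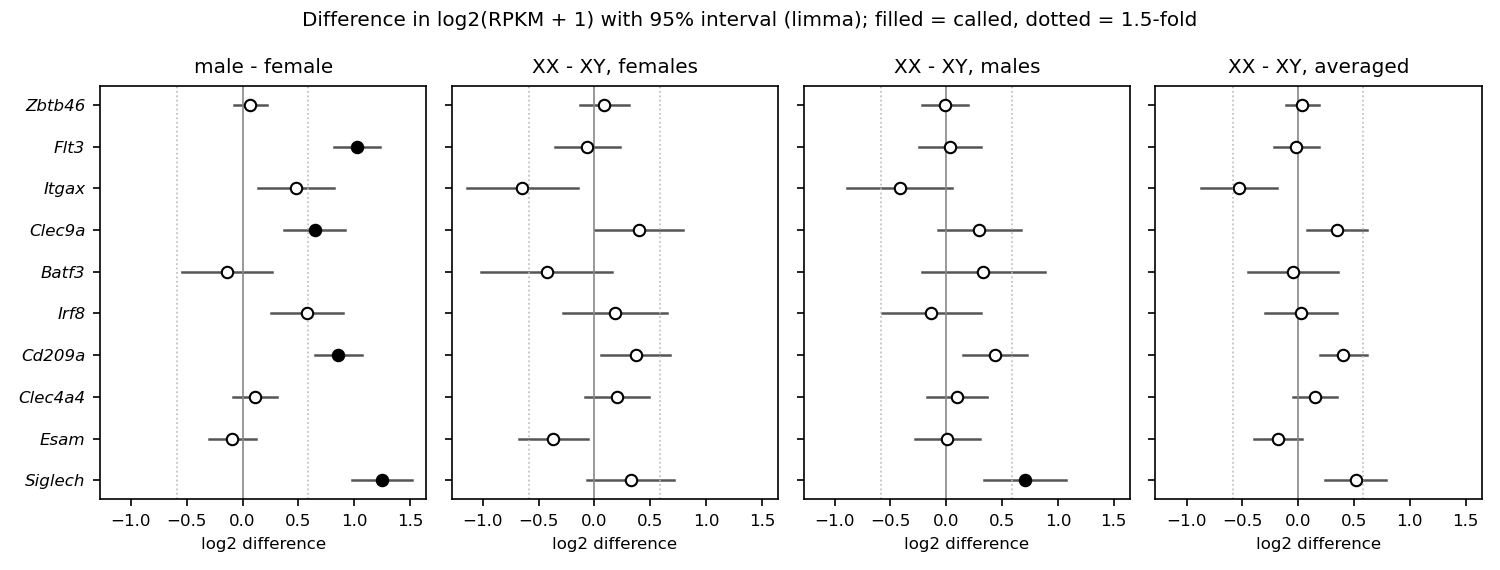
Log2 difference of each of the 10 genes with its 95% interval in 4 comparisons; filled points were called and dotted lines mark 1.5-fold. In males against females the intervals of Siglech (0.98 to 1.51), Flt3 (0.82 to 1.23), Cd209a (0.65 to 1.07), Clec9a (0.37 to 0.92), Irf8 (0.25 to 0.90) and Itgax (0.14 to 0.82) lie above 0.

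Since Flt3, Clec9a, Cd209a and Siglech rose together in males, their promoters from RefSeq are shown (GRCm38.p6, 250 bases before to 50 after the start, 5′ to 3′ on the gene's strand). RefSeq promoters matched 8 of the 10 genes, 9 promoters in all, with no entry used for Esam and Clec4a4. The motifs searched on both strands were TGANTCA (AP-1-like, in 7.81% of all 32851 promoters), GAGGAAGT (PU.1-like, 3.20%), GAAANNGAA (interferon-response-like, 8.56%), CAGGTG (E-box, 20.2%) and GTGGGAA (RBPJ-like, 6.38%), and capitals mark a match. Flt3 lies at chr5:147400440-147400739 on the minus strand, Clec9a at chr6:129408612-129408911 on the plus strand, Cd209a at chr8:3748935-3749234 on the minus strand and Siglech at chr7:55767934-55768233 on the plus strand.
Flt3: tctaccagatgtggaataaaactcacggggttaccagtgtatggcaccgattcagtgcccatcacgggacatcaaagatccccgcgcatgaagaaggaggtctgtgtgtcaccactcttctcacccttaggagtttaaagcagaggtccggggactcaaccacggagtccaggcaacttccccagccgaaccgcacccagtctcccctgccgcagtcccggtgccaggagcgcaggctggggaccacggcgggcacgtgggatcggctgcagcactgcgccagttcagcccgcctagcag
Clec9a: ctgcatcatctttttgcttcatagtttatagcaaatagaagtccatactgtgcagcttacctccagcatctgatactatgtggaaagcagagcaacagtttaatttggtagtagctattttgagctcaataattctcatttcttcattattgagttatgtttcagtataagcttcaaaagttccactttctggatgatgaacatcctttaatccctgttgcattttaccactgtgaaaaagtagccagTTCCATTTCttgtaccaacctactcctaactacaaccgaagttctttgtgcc
Cd209a: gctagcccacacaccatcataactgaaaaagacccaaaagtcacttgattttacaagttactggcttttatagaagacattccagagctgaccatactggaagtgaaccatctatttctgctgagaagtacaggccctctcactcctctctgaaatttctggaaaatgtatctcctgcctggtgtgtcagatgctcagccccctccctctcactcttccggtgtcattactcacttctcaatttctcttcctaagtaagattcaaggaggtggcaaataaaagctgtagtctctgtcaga
Siglech: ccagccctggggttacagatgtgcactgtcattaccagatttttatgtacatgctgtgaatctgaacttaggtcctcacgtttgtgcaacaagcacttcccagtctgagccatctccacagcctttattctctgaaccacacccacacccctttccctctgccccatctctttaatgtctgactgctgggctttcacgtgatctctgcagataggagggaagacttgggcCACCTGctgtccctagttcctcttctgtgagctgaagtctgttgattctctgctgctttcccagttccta
Clec9a holds an interferon-response-like match whose first base is at -2 from the start, and Siglech an E-box match at -20, while Flt3 and Cd209a hold none of the 5 motifs in this window. A match is a description of the letters. GC content was 61% for Flt3, 37% for Clec9a, 44% for Cd209a and 50% for Siglech. Of the 9 promoters, 6 held at least 1 match, among them Itgax with an AP-1-like match at -56, Zbtb46 with one at -61 and an E-box match at -238, and Irf8 with an RBPJ-like match at 36 in its first promoter and an E-box match at -205 in its second. The Zbtb46 window (chr2:181424339-181424638, minus strand) lies inside the gene (181371009 to 181493262), not at its outer end. The second Irf8 window also lies inside its gene. The share of all promoters with at least 1 of the 5 motifs was not counted, so the count of 6 has no background to be read against.

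Other genes of each subset moved unevenly between males and females. Of 15 further pDC genes, 4 rose in males and 1 fell, with a median log2 difference of 0.44 (7 called by limma-voom, 4 to 6 leaving out 1 mouse). The pDC genes that rose were Cd300c (1.10, limma adjusted p = 2.34e-05), a receptor of the CD300 family, Spib (0.79, 0.000332), a transcription factor that pDC share with B cells, Tlr9 (0.76, 0.0669), the sensor of unmethylated DNA, and Tcf4 (0.70, 1.88e-05), the factor that fixes pDC identity. Ccr9, a gut-homing chemokine receptor, fell by 0.60 (0.00411). B cell markers rose in males by a median of 0.67, and the part of B cells in the Tlr9 and Tcf4 differences was not tested. Tcf4 and Ccr9 fell outside the rule for named genes and were named after their values were seen. The Tlr9 call was lost without any 1 of XXF F2, XXF F3, XYF F6, XXM 7, XXM 8, XYM 12, XYM 13 or XYM 16 (adjusted p from 0.103 to 0.154), and the Ccr9 call without XYF F7 (-0.50), XXM 2 (-0.57), XXM 5 (-0.57) or XYM 9 (-0.56).

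Of 14 further cDC1 genes, 1 rose in males and 2 fell (3 to 4 called leaving out 1 mouse), with a median of 0.09. Wdfy4, needed for cross-presentation and also found in B cells, rose by a log2 difference of 0.76 (limma adjusted p = 0.00273). Itgae, the CD103 integrin chain, fell by 0.87 (8.68e-05) and Cd8a, which CD8 T cells share, fell by 1.35 (7.62e-06). T cell markers had a median of -1.18, and the part of T cells in the Itgae and Cd8a differences was not tested. Of 14 further cDC2 genes, 2 rose and 0 fell (3 called without XYM 16), with a median of 0.22: Clec10a, a galactose-binding lectin, rose by 0.69 (0.000521) and Irf4, a transcription factor also of activated B cells, rose by 0.73 (0.000786), the latter named after its values were seen. None of the 14 genes of mature dendritic cells was called by limma (0 called, 2 at an unadjusted p under 0.05, 0 called by limma-voom), with a median of 0.07. Of 18 growth factors and transcription factors of the lineage, 1 rose, Bcl6 (0.75, 0.0141), a repressor that germinal centre B cells share, and the count was 2 without any 1 of XXF F2, XXF F3, XYF F6, XYF F8, XXM 7, XXM 8, XYM 12, XYM 13 or XYM 16.

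**Figure D3:**
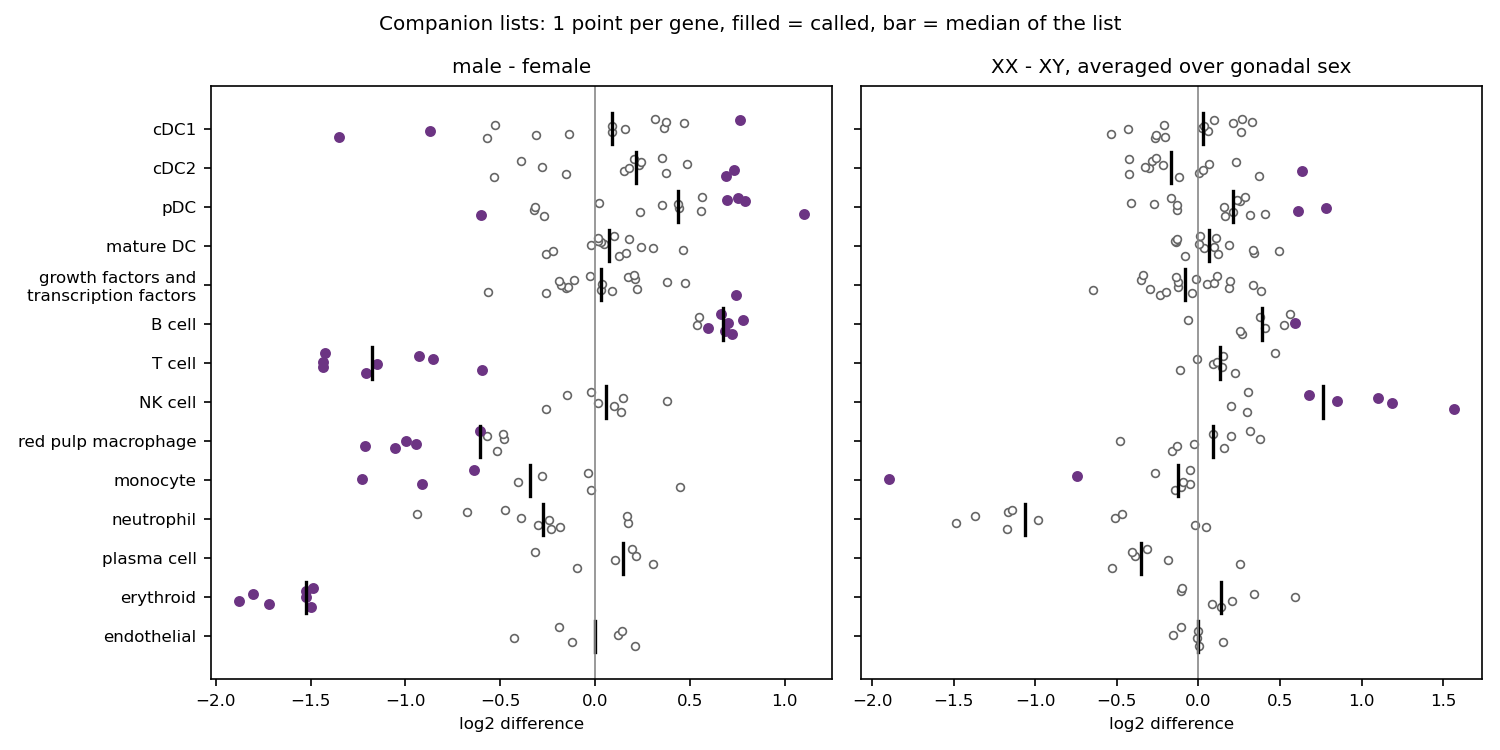
Log2 difference of the genes of each list in males against females (left) and in XX against XY averaged over gonadal sex (right); each point is 1 gene, filled where called, and bars are list medians. In males against females the medians were 0.44 (pDC, 15 genes), 0.22 (cDC2, 14 genes) and 0.09 (cDC1, 14 genes).

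Markers of other spleen cells moved with gonadal sex too. Of 8 B cell markers, 6 rose in males (median 0.67; 4 to 8 leaving out 1 mouse), and their summed level was 2991, 2881, 2511, 2838 and 2778 RPKM in XXF, 1598, 2586, 2647 and 1344 in XYF, 4043, 4412, 3930, 3999 and 3663 in XXM, and 3628, 3032, 3887, 3469 and 2287 in XYM, with Cd79b the most abundant (865 RPKM). All 8 T cell markers fell in males (median -1.18; 7 to 8 leaving out 1 mouse), with summed levels of 768, 1133, 985, 799.7 and 965 RPKM in XXF, 791, 1007, 738 and 373 in XYF, 373, 390, 341, 268 and 256 in XXM, and 383, 354, 499, 401 and 234 in XYM, Cd3g being the most abundant (168 RPKM). Male libraries were thus mostly higher in B cell RNA and lower in T cell RNA, with XYM 9 inside the female range for B cells and XYF F9 inside the male range for T cells. All 7 erythroid markers tested fell (median -1.53), and their summed RPKM was 12794, 19673, 28767, 22821 and 16303 in XXF, 48004, 20126.5, 15766 and 36399 in XYF, 12346, 9717, 7616, 7314 and 14503 in XXM, and 2297, 6839, 5035, 1587 and 14641 in XYM, led by Hbb-bs (10148 RPKM). In each of these lists, 0 markers were under 0.5 RPKM in every mouse. Their part in the differences of the 10 genes and of the dendritic cell lists was not tested.

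Myeloid markers differed less evenly. Of 9 red pulp macrophage markers, 5 fell in males (median -0.60; 4 to 8 leaving out 1 mouse), and of 8 monocyte markers 3 fell (median -0.34; 2 to 3). Summed red pulp macrophage markers, led by Hmox1 (269 RPKM), were 982, 1131, 1135, 1091 and 915 RPKM in XXF, 1184, 2169, 846 and 772 in XYF, 804, 504, 677, 1146 and 827 in XXM, and 544, 656, 753, 570 and 381 in XYM. Of 10 neutrophil markers, limma called 0 (0 at an unadjusted p under 0.05, 0 by limma-voom), 1 without XYF F8 and 3 without XYM 9. Summed neutrophil markers, led by S100a9 (4978 RPKM), reached 56997 RPKM in XYF F9 and 58844 in XYM 9, while the other 17 mice lay between 3251 and 16895. NK cell markers (0 of 8 called, 1 at an unadjusted p under 0.05, 0 by limma-voom; median 0.06) and plasma cell markers (0 of 6, 1 unadjusted, 0 by limma-voom; median 0.15) did not pass. Endothelial markers were 6 tested with 0 called (2 unadjusted, 2 by limma-voom), and of 8 stromal markers 7 were under 0.5 RPKM in every mouse and 1 was tested with 0 called (1 unadjusted, 1 by limma-voom). Their part was not tested.

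**Figure D4:**
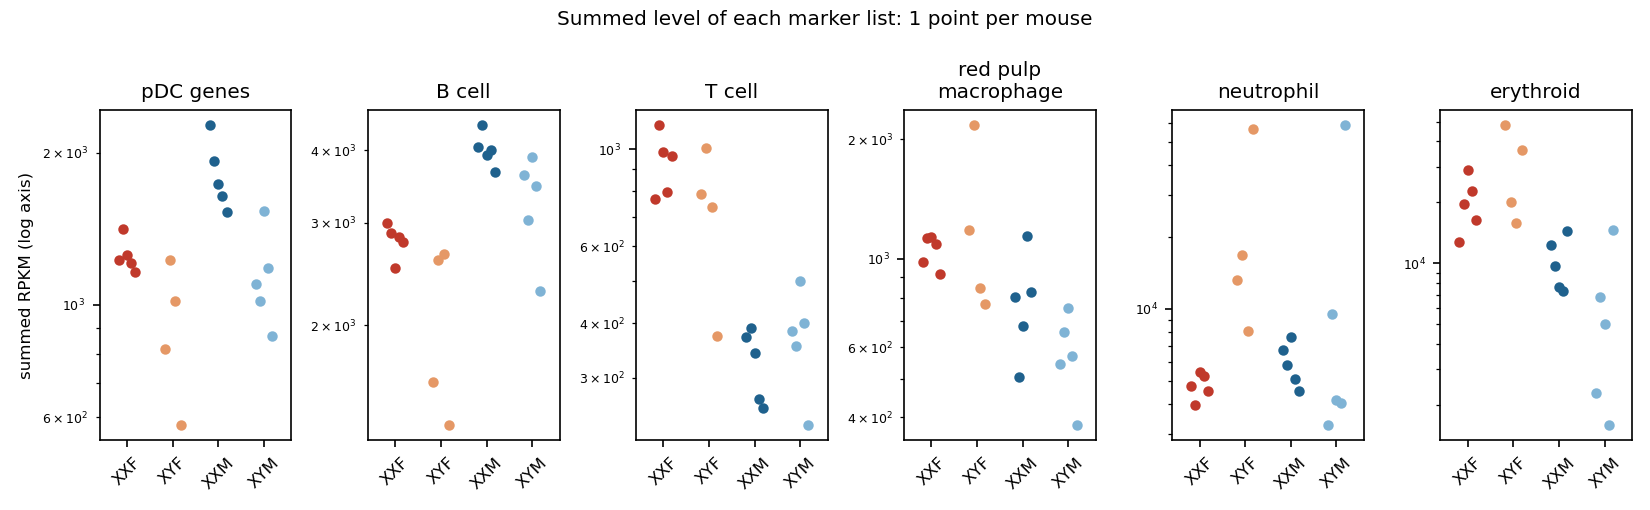
Summed RPKM (log axis) of the pDC list and of markers of other cell types in each mouse, 1 point a mouse, by group. The pDC sums run from 578 to 2264, of which Ly6d, also a gene of B cells and their progenitors, averages 947 RPKM. The B cell marker Cd79b averages 865 RPKM, and the part of B cells in the pDC sums was not tested. B cell sums run from 1344 to 4412, T cell sums from 234 to 1133 and neutrophil sums from 3251 to 58844.

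Within males, the comparison of XX with XY asks what goes with the sex chromosomes when testes are shared. Siglech rose in XX males and was the 1 gene called of the 10, beside 2.96% of all genes tested. Cd209a leaned the same way without reaching 1.5-fold, and Itgax had a lower mean in XX males. The levels of Siglech in XXM (4.53, 4.41, 4.39, 4.04 and 5.15 on the log2 scale) all lay above those in XYM (3.99, 3.91, 3.85, 3.51 and 3.73), as was so for 2.27% of all genes tested. The log2 difference was 0.70 (SE 0.18, 95% interval 0.33 to 1.07, limma adjusted p = 0.0615, exact permutation p = 0.00794, the smallest possible). The call was lost in a fit of these groups alone (adjusted p = 0.105), without XXM 2 (0.151), XXM 5 (0.112), XXM 6 (0.110), XYM 12 (0.107), XYM 13 (0.137) or XYM 16 (0.135), and without XXM 8, where the difference was 0.54.

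Cd209a differed by 0.44 on the log2 scale between XX and XY males (limma adjusted p = 0.0905, exact permutation p = 0.0159), with 4 of 5 XXM above every XYM. Itgax differed by -0.42 (limma adjusted p = 0.231, exact permutation p = 0.127), and was called with array weights (-0.60). Its difference ran from -0.56 to -0.26 leaving out 1 mouse. For Clec9a the difference was 0.29, for Batf3 0.33, for Irf8 -0.13, for Clec4a4 0.10, for Flt3 0.03, for Zbtb46 -0.01 and for Esam 0.01, none of them called. Leaving out 1 mouse, Clec9a ran from 0.16 to 0.38, Batf3 from 0.14 to 0.53, Irf8 from -0.28 to -0.014 and Clec4a4 from 0.0094 to 0.14. Of the 2 genes that separated males from females without overlap, Siglech was thus called between XX and XY males and Flt3 was not.

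The wider lists gave few calls between XX and XY males, and most were lost when 1 mouse was left out. Of 15 pDC genes, 2 rose in XX males, Ly6d (0.90, limma adjusted p = 0.0616), also a gene of B cells and their progenitors, and Klk1 (0.71, 0.0959), a kallikrein. B cell markers had a median of 0.26 in this comparison, and their part in the Ly6d difference was not tested. The count was 0 without any 1 of XXM 2, XXM 5, XXM 6, XYM 12, XYM 13 or XYM 16, was 1 without XXF F2, XXF F4, XXF F5, XYF F6, XXM 7 or XXM 8, and 4 without XYM 15. Of 14 cDC1 genes, 3 fell: Ly75 (-1.04, 0.0616), the DEC-205 uptake receptor, Cd8a (-0.77, 0.0621) and Cxcr3 (-0.69, 0.0866), a chemokine receptor. That count was 0 without any 1 of XXM 2, XXM 5, XXM 6, XYM 12, XYM 13 or XYM 16 and 4 without XYM 9, and the Cxcr3 call was also lost without XXF F5 or XXM 7. Of 14 cDC2 genes, Clec10a rose (0.79, 0.0275) and Cd4 fell (-0.69, 0.0842), the latter named after its values were seen, and 1 was called without XXF F5, XXM 2, XXM 5, XXM 6, XYM 12 or XYM 13 and 3 without XYM 15, and the Cd4 call was also lost without XYM 16 and the Klk1 call without XYM 9. The mature list had 0 called (1 unadjusted) and the growth factors and transcription factors 0 (4 unadjusted), and limma-voom called 0 of either.

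Within females, the same comparison asks about the sex chromosomes when ovaries are shared. None of the 10 genes was called by limma or by limma-voom, beside 1.38% of all genes tested that limma called. At an unadjusted p under 0.05 there were 4 of the 10 with limma and 3 with limma-voom. The share of all genes at that unadjusted p was not counted. Means of Clec9a, Cd209a and Siglech were higher in XXF and those of Itgax, Esam and Batf3 lower. The Itgax log2 level was 3.88, 3.27, 3.32, 3.88 and 3.69 in XXF and 3.93, 3.83, 4.58 and 4.68 in XYF, with 3 of 5 XXF below every XYF. Its difference was -0.65 (SE 0.24, limma adjusted p = 0.176, exact permutation p = 0.0317), and it was called at -0.79 without XYF F7. The sums of neutrophil and of monocyte markers were also higher in every XYF than in any XXF. Summed NK cell markers were lower in every XYF, at 119 to 286 RPKM beside 472 to 598 in XXF. Of those 8 markers, 5 were called higher in XX (median 1.08), but 2 to 7 leaving out 1 mouse. Summed neutrophil markers were 4774, 3951, 5453, 5225 and 4549 RPKM in XXF and 13211, 16895, 8102 and 56997 in XYF. Of the 10 neutrophil markers, limma called 0 (median -1.63; 5 unadjusted, 0 called by limma-voom), but 1 without XYF F7, 4 without XYF F8 and 5 without XYM 9. Summed monocyte markers, led by Ly6c2 (161 RPKM), were 306, 265, 300, 306 and 291 RPKM in XXF and 536, 488, 489 and 784 in XYF, with 2 of 8 called (median -0.30). Without XYF F9 and XYM 9, Itgax differed by -0.51 in females. The part of these cells in the Itgax difference was not tested.

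Clec9a differed by 0.40 (limma adjusted p = 0.265, exact permutation p = 0.0556), with 3 of 5 XXF above every XYF. Its difference ran from 0.23 to 0.50 leaving out 1 mouse. Cd209a differed by 0.37 (0.202, exact p = 0.0476), also with 3 of 5 XXF above every XYF. Esam, low in count, differed by -0.37 (0.203, exact p = 0.0476), with 3 of 5 XXF below every XYF. None of these differences passed the adjustment over all genes. Siglech differed by 0.32, Batf3 by -0.43, Clec4a4 by 0.20, Irf8 by 0.19, Zbtb46 by 0.09 and Flt3 by -0.06. The sign for Irf8 turned without XYF F6 (-0.02), and that for Flt3 without XYF F8 (0.06) or XYF F9 (0.01).

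Among the wider lists in females, 4 of 14 cDC2 genes were called (median -0.22): Dtx1, a Notch-pathway ligase, rose in XX (0.74, limma adjusted p = 0.0222), while Tmem176a (-0.86, 0.0561), Tmem176b (-0.81, 0.0438) and Klf4 (-0.87, 0.0684), a transcription factor of cDC2 and monocytes, fell. That count was 0 without XYF F9, 1 without XXF F4 or XXF F5, 2 without XXF F1 or XYF F6, 5 without XYM 9 and 6 without XYF F8, and the Klf4 call was also lost without XXF F2. Limma called 0 of 14 cDC1 genes (2 unadjusted; 1 without XYF F7), 0 of 15 pDC genes (5 unadjusted; 3 without XYF F7, 2 without XYF F8, 1 without XYM 9), 0 of 14 mature genes (3 unadjusted; 1 without XYF F7 or XYM 9) and 0 of 18 growth factors and transcription factors (4 unadjusted). Limma-voom called the numbers 0, 0, 0 and 0 for these 4 lists.

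Averaged over females and males, XX against XY called 0 of the 10 genes with limma and 0 with limma-voom, beside 1.72% of all genes tested that limma called. At an unadjusted p under 0.05 there were 4 of the 10 with limma and 4 with limma-voom, a share not counted over all genes. The averages of Siglech and Cd209a were higher in XX and that of Itgax lower, all short of 1.5-fold. Siglech differed by 0.51 (SE 0.13, limma adjusted p = 0.0399, exact permutation p = 0.00126), with 5 of 5 XXM above every XYM and 2 of 5 XXF above every XYF. Cd209a differed by 0.40 (SE 0.10, limma adjusted p = 0.0399, exact permutation p = 0.000756). Itgax differed by -0.53 (SE 0.16, limma adjusted p = 0.0811, exact permutation p = 0.00718) and was called without XYF F6 (-0.59), XYF F7 (-0.60) or XYM 9 (-0.60). Clec9a differed by 0.35 (limma adjusted p = 0.135), Esam by -0.18 (0.290), Clec4a4 by 0.15 (0.350), Batf3 by -0.05, Zbtb46 by 0.04, Irf8 by 0.03 and Flt3 by -0.02. Whether the XX effect differed between females and males was tested as an interaction, and limma called 0 of the 10 (0 unadjusted; limma-voom 0 and 0), beside 0.0846% of all genes tested, with Batf3 the furthest at -0.76 (limma adjusted p = 0.259).

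Of the dendritic cell lists in that average, 2 of 15 pDC genes rose in XX, Ly6d (0.78, limma adjusted p = 0.0163) and Klk1 (0.61, 0.0613), and 1 of 14 cDC2 genes, Dtx1 (0.64, 0.0019). B cell markers had a median of 0.39 in that average, and their part in the Ly6d difference was not tested. The pDC count was 1 without XXF F3, XYF F6, XYF F9, XXM 8, XYM 9 or XYM 16, and the cDC2 count 0 without XYM 9. Limma called 0 of 14 cDC1 genes (4 unadjusted; 1 without XXF F2, XYF F7 or XYM 9), 0 of 14 mature genes (3 unadjusted; 1 without XYF F7) and 0 of 18 growth factors and transcription factors (7 unadjusted). Limma-voom called 0, 0 and 1 gene of these 3 lists.

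Some pairs of the genes were compared across mice. Over 19 mice, with group means removed, 8 pairs fixed by biology were compared with permutation p-values, and 3 passed Benjamini-Hochberg adjustment at 0.05. Clec9a and Irf8 had Pearson r = 0.68 (permutation p = 0.00195, adjusted 0.0156) and Spearman rho = 0.64 (p = 0.0044). Without the 2 mice farthest from the median of Clec9a, r was 0.65 (permutation p = 0.0118, adjusted 0.0941), and without XYF F8 the adjusted p was 0.055. Zbtb46 and Itgax had r = 0.59 (permutation p = 0.0109, adjusted 0.029) and rho = 0.55 (p = 0.0244), and r = 0.54 (p = 0.0387, adjusted 0.114) without the 2 farthest. Zbtb46 and Flt3 had r = 0.54 (permutation p = 0.0103, adjusted 0.029) and rho = 0.43 (p = 0.095), and r = 0.43 (p = 0.0969, adjusted 0.194) without the 2 farthest. So without the 2 farthest mice none of the 3 relations passed at 0.05 after adjustment. With median ratio scaling the adjusted p was 0.0427 for Clec9a and Irf8 and 0.0774 for each Zbtb46 pair. The adjusted permutation p for Zbtb46 and Itgax was over 0.05 without XXF F1 (0.0807), XXF F2 (0.0626), XYF F7 (0.068), XYF F8 (0.0773), XYM 9 (0.0672) or XYM 13 (0.127), and for Zbtb46 and Flt3 without XXF F1 (0.0807), XXF F2 (0.0507), XYF F7 (0.068), XYF F8 (0.079), XXM 8 (0.0598) or XYM 13 (0.127).

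The other 5 pairs did not pass. Clec9a and Batf3, the pair of cDC1 genes, had r = -0.45 (permutation p = 0.0605, adjusted 0.121; rho = -0.45, p = 0.0679). Clec4a4 and Esam, of cDC2, had r = 0.33 (p = 0.207; rho = 0.31, p = 0.23), and Clec4a4 and Cd209a r = 0.02 (p = 0.947; rho = 0.09, p = 0.726). Siglech and Irf8 had r = 0.25 (p = 0.311; rho = 0.24, p = 0.345) and Clec9a and Siglech r = 0.34 (p = 0.272; rho = 0.28, p = 0.293). Without the 2 mice farthest from the median of the first gene, r was 0.62 for Clec9a and Siglech (permutation p = 0.0426, adjusted 0.114) and 0.41 for Clec4a4 and Cd209a (permutation p = 0.193). It was -0.39 for Clec9a and Batf3 (permutation p = 0.148), 0.13 for Clec4a4 and Esam (0.672) and 0.30 for Siglech and Irf8 (0.313), and none of the 5 pairs passed the adjustment.

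The genes most like each member over the 19 mice, by Pearson r of group-centred log2 levels, are given as a description with no test. Of the 37 pairs among the 10 genes outside the 8 tested, the highest r were 0.75 for Flt3 and Itgax, 0.70 for Irf8 and Cd209a, 0.64 for Irf8 and Itgax, 0.63 for Zbtb46 and Siglech and 0.62 for Batf3 and Esam. Over all genes, the closest are named for each of the 10. For Flt3 they were Sel1l (0.88), Camk2a (0.88) and Edem1 (0.86), for Siglech Oga (0.82), Chst10 (0.78) and Traj39 (0.75), for Clec9a Gm9054 (0.87), Map2k7 (0.85) and Dennd1c (0.84), and for Cd209a Plekhb2 (0.89), Chpf2 (0.89) and Unc119b (0.87). For Irf8 they were Trp53i11 (0.97), Sipa1 (0.97) and Snx9 (0.96), and for Itgax Itgb1 (0.92), Shtn1 (0.90) and Ighv5-17 (0.88). For Zbtb46 they were Urb2, Zfp862-ps and Cep41 (each 0.81), for Batf3 Pex16 (0.92), Lemd2 (0.90) and Ckb (0.90), for Clec4a4 Pspn (0.77), Fkbp11 (0.76) and Fbxl15 (0.75), and for Esam Tmem203 (0.90), Isoc2a (0.88) and Hes5 (0.86).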

How the data were processed

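Poly-A RNA of splenocytes was sequenced in 19 libraries, 1 a mouse. With Subread the authors placed reads on mm10, tallied them per gene with featureCounts, and deposited log2 values, which equal log2(RPKM + 1) with 0.0001 added. The authors' methods name a KAPA stranded kit and the labels NEBNext Ultra. Before RNA extraction, the authors used ammonium chloride to remove red cells. Gene names were matched to RefSeq for 25275 of 27179 genes. Reads were recovered as whole numbers, within 0.05 reads, for all 21317 genes with a read.

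The log2 values of 14186 genes with at least 0.5 RPKM in at least 4 mice were fitted with limma 3.58.1 (R 4.3.3, trended spread, 4 group means), in place of the authors' edgeR test, as the deposited values are on the log2 RPKM scale. P-values were adjusted by Benjamini-Hochberg over all genes tested, and the steps were tested on simulated data. Single values were tested by exact two-sided permutation, and relations by 100000 permutations within groups (Python 3.11.15, numpy 2.4.6, scipy 1.17.1). Figures used matplotlib 3.10.9. Alternatives changed the pseudocount, filter, scaling, fit, weights, thresholds, tool (limma-voom on recovered reads) and mice.

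The rule for naming genes took the 10 genes, the 3 genes most like each member, and relatives for level only. In each list it took every gene called in any comparison (the 5 with the largest differences if over 5) and the 2 with the highest mean RPKM. Not every list gene that met the rule is named here. The members and lists were chosen with earlier results of these data known. No sample was left out.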

Additional observations from a re-analysis of the deposited data

Results flagged for a closer look

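In 100 sets of values, each 1 gene or marker sum in 1 group, 4 mice lay far from the rest of their group, by Dixon's test, which chance meets in about 1 in 20 groups. The Irf8 log2 level of XXM 2 was 6.35, where the other XXM lay between 6.83 and 7.03. The Clec4a4 log2 level of XXF F1 was 1.28, where the other XXF lay between 1.77 and 1.86. The summed monocyte markers of XYF F9 were 784 RPKM, where the other XYF lay between 488 and 536. The summed neutrophil markers of XYM 9 were 58844 RPKM, where the other XYM lay between 3251 and 9517. The causes were not tested.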

How the results depend on the processing

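Of the differences of the 10 genes in 4 comparisons under all alternatives, 1192 kept direction and side of the threshold, 34 reversed, 23 passed it and 11 lost it, and the cause was not tested. A changed threshold leaves the difference itself as it was. So does leaving out a male in XX against XY females, or a female in XX against XY males. The 1192 thus include differences that could not reverse, and the number is no measure of robustness. Of the 10 genes, 4 were called in males against females, 5 with quantile normalization, and 6 with array weights, with no fold threshold or without the 2 neutrophil-rich libraries (chosen after seeing the data). In XX against XY males, 0 were called with the 2 groups alone or at adjusted p 0.05 and 2 with array weights or no fold threshold (0 to 1 leaving out 1 mouse). Averaged over both gonadal sexes, 1 was called with array weights and 3 with no fold threshold (0 to 1 leaving out 1 mouse), and in females 0 to 1 leaving out 1 mouse.

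Counts over all genes moved more. XX against XY females gave 196 genes, 88 with the 2 groups alone, 103 at adjusted p 0.05, 345 with no fold threshold, 127 without the 2 neutrophil-rich libraries, and 56 (without XYF F9) to 850 (without XYF F7) leaving out 1 mouse. Males gave 420, with no filter 211, the 2 groups alone 121, array weights 1027, adjusted p 0.05 85, no fold threshold 1115, without the 2 libraries 876, and 51 (without XXM 2) to 1213 (without XYM 15). The average gave 244, with log2(RPKM + 0.1) 413, no fold threshold 983, limma-voom 391, and 148 (without XYF F9) to 518 (without XYF F7). Males against females gave 1039, with log2(RPKM + 0.1) 1700, no fold threshold 5468 and limma-voom 1714. The interaction gave 12, with log2(RPKM + 0.1) or no filter 6, array weights 1910, adjusted p 0.05 0, limma-voom 4, without the 2 libraries 782, and 0 to 1694 (without XYM 9). Median ratio scaling gave 65 higher and 114 lower in females, beside 95 and 101.

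Reversals were of small differences. In females, Flt3 was 0.0059 without the 2 libraries and -0.17 to 0.062 leaving out 1 mouse, and Irf8 -0.016 to 0.35. In males, Zbtb46 was 0.040 with quantile normalization and -0.051 to 0.027 leaving out 1 mouse, Flt3 -0.091 with array weights and -0.023 to 0.12, and Esam -0.012 with limma-voom and -0.056 to 0.089. In the average, Zbtb46 was -0.026 with array weights, Flt3 0.0071 without the 2 libraries and -0.069 to 0.046 leaving out 1 mouse, Batf3 -0.14 to 0.049, and Irf8 -0.012 with median ratio scaling, -0.022 with quantile normalization, -0.013 with array weights, -0.068 without the 2 libraries and -0.074 to 0.11 leaving out 1 mouse. The lowest Batf3 value in that average over all alternatives was -0.26. The r of Clec4a4 and Cd209a ran from -0.15 to 0.26 leaving out 1 mouse, and was 0.41 without the 2 farthest from the median. Counts on the marker lists within females and within males also moved on leaving out 1 mouse, and the cause was not tested. Limits are the 4 or 5 mice a group, the bulk RNA, and 18 to 54 reads for Clec4a4.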

Other observations

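Markers of other immune cells were also compared between XX and XY mice. Averaged over gonadal sexes, 5 of 8 NK cell markers rose in XX (median 0.77), among them Gzma (1.57, limma adjusted p = 0.00282), Klrb1c (1.19, 0.00139) and Ncr1 (1.10, 0.00406), and 2 of 8 monocyte markers fell, Fcgr4 (-1.90, 0.000523) and Ly6c2 (-0.75, but -0.48 and not called without the 2 libraries with the most neutrophil RNA). The NK cell count was 4 in that average without XYM 9. It was 5 in females, but 2 (without XYF F9) to 7 (without XYF F7 or XYF F8) leaving out 1 mouse, and 2 in males, but 0 without any 1 of XXM 2, XXM 5, XXM 6, XYM 12, XYM 13 or XYM 16, 3 without XYF F9 or XYM 9 and 4 without XYM 15. Monocyte markers had 2 called in females (3 without XYM 9) and 2 in males, the latter 0 without XXM 2, XXM 5 or XYM 13 and 1 without any 1 of 11 other mice. The 10 neutrophil markers had 0 called in the average (limma; 5 unadjusted), 2 without XYF F7, 1 without XYF F8 and 4 without XYM 15, and a median of -1.06.

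The other lists gave at most 2 calls in XX against XY. In females 1 B cell marker rose (4 without XYF F7, 3 without XYF F8), 1 T cell marker rose (0 without XXF F1, XXF F2, XXF F4, XXF F5, XYF F6 or XYF F9, 2 without XYF F8), 1 plasma cell marker fell (0 without XXF F1, XXF F4, XXF F5, XYF F6 or XYF F9, 2 without XXF F3) and 1 red pulp macrophage marker fell, Cd5l, a call lost without any 1 of 16 mice. In males 1 B cell marker rose (0 without XXM 2, XXM 5, XXM 6, XYM 12, XYM 13 or XYM 16, 2 without XYM 15), 1 T cell marker fell (0 without XXM 2 or XYM 12), 1 red pulp macrophage marker rose (0 without any 1 of 13 mice) and 2 erythroid markers rose (0 without XYM 12, XYM 13, XYM 16, XXM 2, XXM 5, XXM 6 or XXF F5, 1 without XXF F2, XXF F4 or XXM 8, 5 without XYM 9). In the average, 1 B cell marker rose, Cr2 (list count 0 without XXF F4, XYF F6, XYF F9, XXM 2, XXM 5, XXM 6 or XYM 9, 2 without XYF F8 or XXM 7, 3 without XYF F7 or XYM 15; the Cr2 call was also lost without XXF F1), and limma and limma-voom each called 0 of the T cell (1 unadjusted), red pulp macrophage (1 unadjusted; 1 called without XXM 7), plasma cell (4 unadjusted; 1 called without XXF F3), erythroid (0 unadjusted), endothelial (0 unadjusted) and stromal (0 unadjusted) markers tested.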
